A study of Mus musculus with 4 samples.

Results

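The genes described are the transcripts of the D-type cyclins (Ccnd1, Ccnd2 and Ccnd3), of the kinases that they activate (Cdk4 and Cdk6), of 3 CDK inhibitors (Cdkn1b, Cdkn1c and Cdkn2c) and of the pocket proteins Rb1 and Rbl2. They were chosen by gene symbol from the deposited table, where all 10 are among the 16051 genes listed. The table holds 4 mRNA sequencing libraries of 3T3-L1 cells, a mouse embryonic fibroblast line that can be turned into adipocytes in culture. After differentiation with isobutyl-methylxanthine, dexamethasone and insulin, the cells received 100 μM risperidone, an atypical antipsychotic, or its solvent DMSO for 48 h. Each treatment has 2 libraries, each made from the pooled RNA of 3 cultures, and the sources do not say whether the libraries of a treatment came from separate differentiations. The p-values therefore measure the spread between pooled libraries, which may be technical. GEO's labels name the control as untreated and mention retinas in the extraction text, whereas the study's methods name DMSO and cultured cells, and the latter names are used here.

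D-type cyclins are made in response to growth factors and bind CDK4 or CDK6 in the G1 phase of the cell cycle. The active kinases phosphorylate the retinoblastoma protein and its relatives, which releases E2F transcription factors and lets cells enter S phase. INK4 inhibitors such as p18 (Cdkn2c) bind CDK4 and CDK6 alone, while CIP/KIP inhibitors such as p27 (Cdkn1b) and p57 (Cdkn1c) bind cyclin-CDK complexes and mainly block CDK2. In the 3T3-L1 line, growth-arrested preadipocytes re-enter the cycle for a short clonal expansion before they differentiate.

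The depth was between 15883712 and 16374119 counts per library. The cells carried few marks of mature adipocytes. Of 10 adipocyte markers, 4 passed the expression limit (Pparg, Fabp4, Lpl and Cd36), while Adipoq, the gene of adiponectin, had 1 count or none in each library and Lep, that of leptin, 1 count in all. The summed level of these 10 markers was 378 and 432 FPKM with DMSO and 266 and 277 FPKM with risperidone, and that of 7 preadipocyte and fibroblast markers was 588 and 582 FPKM with DMSO and 944 and 914 FPKM with risperidone. Most of the latter rise was Col1a1, since the other 6 markers summed to 208 and 214 FPKM with DMSO and to 229 and 240 FPKM with risperidone. Those 6 did not move together, as Dlk1, Thy1 and Ly6a rose while Col3a1 and Pdgfrb fell. The adipocyte sum was mostly Lpl and Fabp4. Both sums moved with the treatment, and their part in the results was not tested. Since the RNA is from bulk cultures, fewer cells of a type and less RNA per cell cannot be told apart. The library of risperidone replicate 2 stood apart, with a summed level of 11 kidney markers of 200 FPKM against 1.58 to 2.64 FPKM in the others, with 11 of the 11 above 0 in that library and 3 of them (Aqp2, Nphs1 and Pvalb) at 0 in the other 3 libraries. The results are therefore also given without it where a call depends on it.

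In the comparison of risperidone with DMSO, Cdk6 and Ccnd1 rose, Ccnd3 and Rb1 rose by less, Cdkn2c fell by more than any other gene of the group, and Cdk4 fell by less. A gene was tested if it averaged 1 FPKM or more over the 4 libraries, which 9 of the 10 did, and was called at an adjusted p under 0.05 in the edgeR quasi-likelihood test. By this rule 4 of the 9 were higher and 2 were lower. The background was 32.1% higher and 32.2% lower among 10243 genes, 64.3% together, so that 6 of 9 (66.7%) is a share near that of all genes. The median log2 fold change was 0.08 over the 9 genes and 0.000442 over all genes tested. The FPKM of both treatments did not overlap for 7 of the 9 genes (77.8%), against 82.2% of all genes tested. Without risperidone replicate 2, 3 were higher and 2 were lower, since Rb1 lost its call, and of all genes 32.3% were higher and 32.7% were lower.

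**Figure D1:**
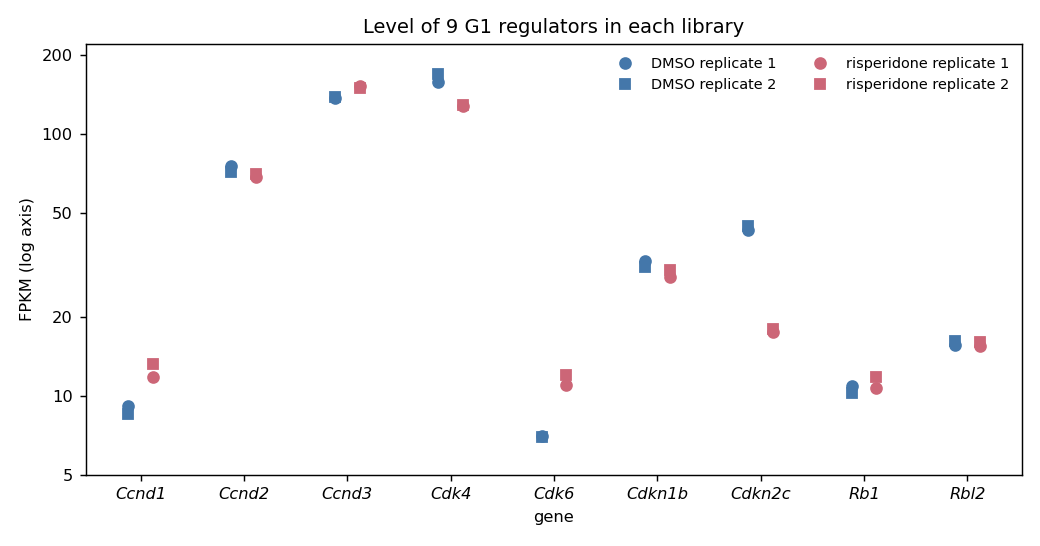
FPKM (log axis) of 9 genes in each of the 4 libraries, with DMSO in blue, risperidone in red, circles for replicate 1 and squares for replicate 2. Cdkn1c, at 0 FPKM in 3 libraries, is not drawn. The libraries of a treatment lie close together, and the widest gaps between treatments are those of Cdkn2c, downward, and of Cdk6, upward.

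Levels in FPKM, which are per transcript length, can be set beside each other. With DMSO the order was Cdk4 (163 FPKM), Ccnd3 (138 FPKM), Ccnd2 (73.3 FPKM), Cdkn2c (43.9 FPKM), Cdkn1b (31.8 FPKM), Rbl2 (15.9 FPKM), Rb1 (10.5 FPKM), Ccnd1 (8.84 FPKM) and Cdk6 (6.99 FPKM), and no neighbours in this order overlapped in their 2 libraries. With risperidone Ccnd3 (151 FPKM) stood above Cdk4 (128 FPKM), and Cdkn1b (29.3 FPKM) above Cdkn2c (17.7 FPKM). The last 3 places were those of Ccnd1 (12.5 FPKM), Cdk6 (11.5 FPKM) and Rb1 (11.3 FPKM), whose libraries overlapped.

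Promoter sequences from RefSeq on GRCm38.p6, the build that the submitters' processing notes name, were at hand for 6 of the 10 genes, in 8 windows of 250 bases before to 50 bases after an annotated start. The windows of Cdk4, Cdk6 and both starts of Cdkn2c are shown because Cdk6 rose while Cdk4 and Cdkn2c fell. The Cdk4 window is at the first base of the gene's span. The Cdk6 window lies inside its gene's span, which begins at chr5:3341004, so it is at an internal start and the first start has no window here. Capitals mark CACGTG, the E-box bound by Myc and related factors, which reads the same on both strands.

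Cdk4, chr10:127063285-127063584, plus strand: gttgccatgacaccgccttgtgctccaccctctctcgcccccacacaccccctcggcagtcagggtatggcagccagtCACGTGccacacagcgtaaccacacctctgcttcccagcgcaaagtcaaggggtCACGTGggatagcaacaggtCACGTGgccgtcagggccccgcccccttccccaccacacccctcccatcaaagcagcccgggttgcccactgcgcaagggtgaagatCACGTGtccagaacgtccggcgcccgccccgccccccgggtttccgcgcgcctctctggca

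Cdk6, chr5:3343643-3343942, plus strand: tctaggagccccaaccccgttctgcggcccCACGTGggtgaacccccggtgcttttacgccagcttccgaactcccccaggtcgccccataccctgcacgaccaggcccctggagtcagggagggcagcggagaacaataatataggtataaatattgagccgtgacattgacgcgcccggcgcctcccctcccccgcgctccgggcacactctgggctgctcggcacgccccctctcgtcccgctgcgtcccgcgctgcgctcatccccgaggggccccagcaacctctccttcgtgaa

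Cdkn2c, upstream start, chr4:109666707-109667006, minus strand: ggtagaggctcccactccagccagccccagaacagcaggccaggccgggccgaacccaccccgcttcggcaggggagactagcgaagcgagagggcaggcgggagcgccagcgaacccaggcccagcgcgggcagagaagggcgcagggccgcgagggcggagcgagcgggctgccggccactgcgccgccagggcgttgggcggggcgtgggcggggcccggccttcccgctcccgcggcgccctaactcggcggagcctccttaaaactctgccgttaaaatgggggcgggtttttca

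Cdkn2c, downstream start, chr4:109665323-109665622, minus strand: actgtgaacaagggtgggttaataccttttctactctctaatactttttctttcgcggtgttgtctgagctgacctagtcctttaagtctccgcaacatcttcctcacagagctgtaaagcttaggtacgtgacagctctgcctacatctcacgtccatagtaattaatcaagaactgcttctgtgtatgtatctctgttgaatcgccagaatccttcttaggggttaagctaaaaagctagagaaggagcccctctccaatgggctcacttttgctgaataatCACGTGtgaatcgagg

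The Cdk4 window held 4 E-boxes, a number reached by 8 of 32851 mouse promoter windows (0.0244%). The Cdk6 window and the downstream Cdkn2c window held 1 each, and 7.15% of all windows held at least 1. The E2F forms TTTCCCGC and TTTGGCGC, searched on both strands as all motifs were, were in none of the 8 windows of the group and in 1.56% of all windows. GGGCGG, the core of the Sp1 site, was in 6 of the 8 windows and in 35.7% of all. The upstream Cdkn2c window had 4 copies of it and a GC content of 73.3%, against 44.0% in the downstream window and a median of 52.7% over all windows. CCAAT occurred in 3 of the 8 windows (Cdkn1b, the second of Ccnd3 and the downstream one of Cdkn2c) and in 37.4% of all. TATAAA was in the Cdk6 window and in 13.6% of all, and GTAAACA, a forkhead motif, in the first Ccnd3 window and in 3.65% of all. TGANTCA (AP-1) and TTCNNNGAA (STAT) were in none of the 8, against 7.81% and 8.3% of all. None of the motifs contains another. A match of letters describes the window and is no evidence of binding, and the motifs were chosen with results of these data known.

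Among the D-type cyclins, Ccnd1 rose the most. Ccnd1 (NCBI Gene 12443, chr7:144929931-144939831, minus strand), the gene of cyclin D1, was at 9.15 and 8.52 FPKM with DMSO and at 11.8 and 13.3 FPKM with risperidone. Both risperidone libraries lay above both DMSO libraries, and the log2 fold change was 0.60 ± 0.0696 (SE, edgeR quasi-likelihood test, adjusted p = 2.43e-05), a 1.51-fold rise. Ccnd3 (NCBI Gene 12445, chr17:47505051-47599689, plus strand), the gene of cyclin D3, was at 137 and 138 FPKM with DMSO and at 152 and 150 FPKM with risperidone. The treatments did not overlap, and the log2 fold change was 0.24 ± 0.0451 (SE, edgeR quasi-likelihood test, adjusted p = 0.000839). With limma on log2(TPM + 1), where the median of all genes was -0.22, the change of Ccnd3 was -0.01 and was not called. On that scale 2 of the 9 genes were higher and 4 were lower, where 15.0% of all genes were higher and 51.7% were lower. Ccnd2 (NCBI Gene 12444, chr6:127125162-127152188, minus strand), the gene of cyclin D2, was at 75.3 and 71.4 FPKM with DMSO and at 68.4 and 70.5 FPKM with risperidone. The DMSO libraries were slightly higher in FPKM, but with TMM scaling the log2 fold change was 0.02, with a 95% interval from -0.09 to 0.13 (edgeR quasi-likelihood test, adjusted p = 0.704). That interval leaves room for changes of either sign, and the call depended on the scaling. With an offset for gene length, under which 65.5% of all genes were called, Ccnd2 was higher (0.12, adjusted p = 0.0155), and with limma on TPM it was lower (-0.22, adjusted p = 0.00751). The counts of Ccnd1 and Ccnd3 were not whole in any library, so some of their reads were shared out between features by the authors' counting and their values are less certain, while those of Ccnd2 were whole. In the GENCODE vM21 annotation, 23.4% of the exon bases of Ccnd1 are also exon of LTO1 on the opposite strand, whose level was 13.7 and 14.2 FPKM with DMSO and 7.39 and 8.59 FPKM with risperidone. Whether the counting used strand is not given in the sources used here, so reads in the shared bases may belong to either gene. For Ccnd3 the shared part was 4.11% (Bysl).

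The D cyclins summed to 221 and 218 FPKM with DMSO and to 232 and 233 FPKM with risperidone, but to 459 and 448 TPM with DMSO and to 425 and 444 TPM with risperidone, so the direction of the sum depends on the unit. Shares and ratios within a library do not depend on the scaling between libraries. Cyclin D3 transcripts made up 61.9% and 63.4% of the sum with DMSO and 65.5% and 64.1% with risperidone. The share of Ccnd2 was 34.0% and 32.7% with DMSO and 29.4% and 30.2% with risperidone, and that of Ccnd1 4.13% and 3.91% against 5.07% and 5.68%. The 3 shares did not overlap between treatments, and Ccnd1 remained the least of the 3 in each library. The gap was small for Ccnd3 (63.4% against 64.1%), and since the shares add up to the whole they are not separate results. Of all genes tested, 82.2% did not overlap in FPKM. The ratio of Ccnd1 to Ccnd2 was 0.122 and 0.119 with DMSO and 0.172 and 0.188 with risperidone, 1.49-fold higher, and that of Ccnd1 to Ccnd3 was 0.0668 and 0.0616 against 0.0774 and 0.0887. With 2 libraries per treatment an exact permutation test cannot reach 0.05, so none was run on these ratios.

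Cdk4 and Cdk6, whose proteins bind the D cyclins, moved in opposite directions. Cdk4 (NCBI Gene 12567, chr10:127063535-127067288, plus strand) was at 157 and 169 FPKM with DMSO and at 128 and 129 FPKM with risperidone. Both risperidone libraries were below both DMSO libraries, and the log2 fold change was -0.25 ± 0.0496 (SE, edgeR quasi-likelihood test, adjusted p = 0.00107). That fall was larger in size than the change of only 43.7% of the genes tested. Cdk6 (NCBI Gene 12571, chr5:3341004-3531008, plus strand) was at 7.04 and 6.94 FPKM with DMSO and at 11.03 and 11.99 FPKM with risperidone. The treatments were well apart, and the log2 fold change was 0.81 ± 0.0533 (SE, edgeR quasi-likelihood test, adjusted p = 3.68e-07), a 1.76-fold rise that was larger in size than the change of 88.5% of the genes tested. Of the exon bases of Cdk4, 19.7% are also exon of Tspan31 on the opposite strand, a gene at 159 and 159 FPKM with DMSO and 140 and 138 FPKM with risperidone. The counts of Cdk4 were whole in each library, unlike those of Ccnd1 and Ccnd3, so they show no sharing out of reads between features. How reads in the shared bases were assigned is not given in the sources used here. Across the other tests, scalings and filters and with each library left out, the log2 fold change of Cdk6 ran from 0.54 to 0.99 and that of Cdk4 from -0.49 to -0.2, and both stayed past the threshold in each.

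Within a library the ratio of Cdk4 to Cdk6 was 22.3 and 24.4 with DMSO and 11.6 and 10.7 with risperidone. Cdk4 was thus still the main transcript of the pair, and the share of Cdk6 in their sum went from 4.29% and 3.94% to 7.95% and 8.53%. The sum itself, which does depend on that scaling, was 164 and 176 FPKM with DMSO and 139 and 141 FPKM with risperidone, without overlap, and it was lower with risperidone in TPM too (340 and 362 against 254 and 268).

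**Figure D2:**
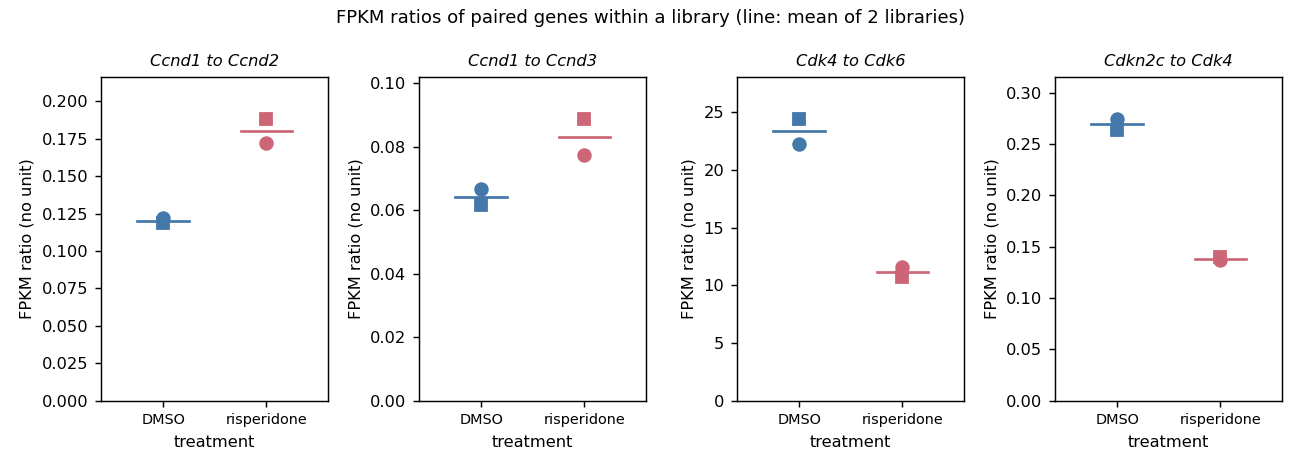
Ratios of FPKM between gene pairs within a library (no unit), on axes that start at 0, with circles for replicate 1, squares for replicate 2 and a line at the mean of 2 libraries. The Cdk4 to Cdk6 ratio goes from a mean of 23.4 to 11.2 and the Cdkn2c to Cdk4 ratio from 0.269 to 0.138, while the Ccnd1 to Ccnd2 and Ccnd1 to Ccnd3 ratios are higher with risperidone.

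The CDK inhibitors did not move together. Cdkn2c (NCBI Gene 12580, chr4:109660876-109666756, minus strand), the gene of p18, was at 43.1 and 44.7 FPKM with DMSO and at 17.5 and 18.0 FPKM with risperidone. Both risperidone libraries lay far below both DMSO libraries, and the log2 fold change was -1.12 ± 0.0593 (SE, edgeR quasi-likelihood test, adjusted p = 1.06e-07), a change larger in size than that of 95.1% of the genes tested. This was the 1 member whose log2 fold change was 1 or more in size, which held for 6.52% of all genes at an adjusted p under 0.05. Its counts were 983 and 961 with DMSO and 419 and 417 with risperidone, and its log2 fold change stayed between -1.13 and -1.12 whichever library was dropped. The ratio of Cdkn2c to Cdk4, the transcript of a binding partner, was 0.274 and 0.264 with DMSO and 0.137 and 0.140 with risperidone. The ratio to Cdk6, which also encodes a binding partner and rose, was not formed.

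Counts and FPKM of Cdkn2c did not tell quite the same size of change. Dividing the counts by the FPKM gives the gene's effective length, here relative to the median gene of a library, and for Cdkn2c it was 0.501 and 0.487 with DMSO and 0.533 and 0.523 with risperidone, 6.88% longer. For the other 8 tested members this difference was between 0.379% and 1.07%. Such a length depends on the mix of transcripts that the counting assigned to the gene, and the 2 RefSeq starts of Cdkn2c lie 1384 bases apart. Levels of single transcripts were not analysed here.

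Cdkn1b (NCBI Gene 12576, chr6:134920401-134925525, plus strand), the gene of p27, was at 32.6 and 30.9 FPKM with DMSO and at 28.5 and 30.1 FPKM with risperidone. In FPKM the risperidone libraries were just below, and with TMM scaling the log2 fold change was -0.02 with a 95% interval from -0.16 to 0.12 (edgeR quasi-likelihood test, adjusted p = 0.786). Only limma on TPM, among the alternatives, brought Cdkn1b past the threshold (-0.26, adjusted p = 0.0076 from limma). Cdkn1c (NCBI Gene 12577, chr7:143458339-143461059, minus strand), the gene of p57, was not detected in either DMSO library or in risperidone replicate 1 and had 5 counts in risperidone replicate 2, the library with kidney transcripts. A count of 0 allows up to 3 counts, or 0.183 to 0.189 CPM, at this depth, a limit that covers counting error only, and no test was made.

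The pocket protein genes had the smallest called change and 1 change that was not called. Rb1 (NCBI Gene 19645, chr14:73192858-73325951, minus strand), the gene of the retinoblastoma protein, was at 10.9 and 10.2 FPKM with DMSO and at 10.7 and 11.9 FPKM with risperidone. The treatments overlapped in FPKM, and the log2 fold change was 0.19 ± 0.0704 (SE, edgeR quasi-likelihood test, adjusted p = 0.0321). This call was lost without DMSO replicate 2 (0.15, adjusted p = 0.132) and without risperidone replicate 2 (0.12, adjusted p = 0.141), and with DESeq2 (adjusted p = 0.114), and with limma on TPM the sign turned (-0.05). With an offset for gene length it was larger (0.28, adjusted p = 0.00212). Rbl2 (NCBI Gene 19651, chr8:91070057-91123844, plus strand), the gene of p130, the pocket protein of resting cells, was at 15.6 and 16.3 FPKM with DMSO and at 15.5 and 16.1 FPKM with risperidone. These values overlapped, and the log2 fold change was 0.08 with a 95% interval from -0.05 to 0.21 (edgeR quasi-likelihood test, adjusted p = 0.251). With an offset for gene length Rbl2 was higher (0.17, adjusted p = 0.0155). Exons on the opposite strand share 8.11% of the exon bases of Rb1 with Rcbtb2 and 6.78% with Lpar6, and 9.17% of those of Rbl2 with Aktip and 11.8% with Gm45464. The counts of Rbl2 were not whole in 2 libraries, while those of Rb1 were whole in each.

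**Figure D3:**
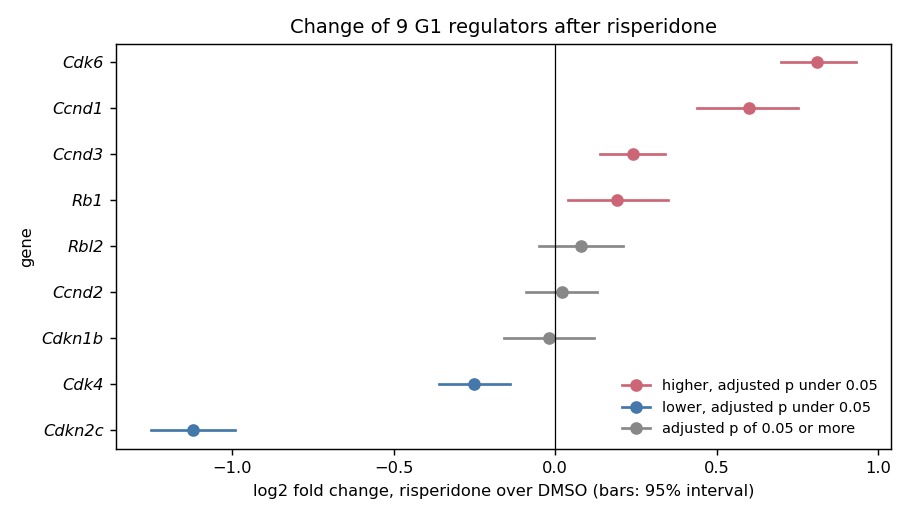
Log2 fold change, risperidone over DMSO, of the 9 tested genes with its 95% interval from edgeR's quasi-likelihood test, red where higher and blue where lower at an adjusted p under 0.05. Cdk6 (0.81) and Ccnd1 (0.60) are farthest to the right and Cdkn2c (-1.12) farthest to the left, and the intervals of Rbl2, Ccnd2 and Cdkn1b cross 0.

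**Figure D4:**
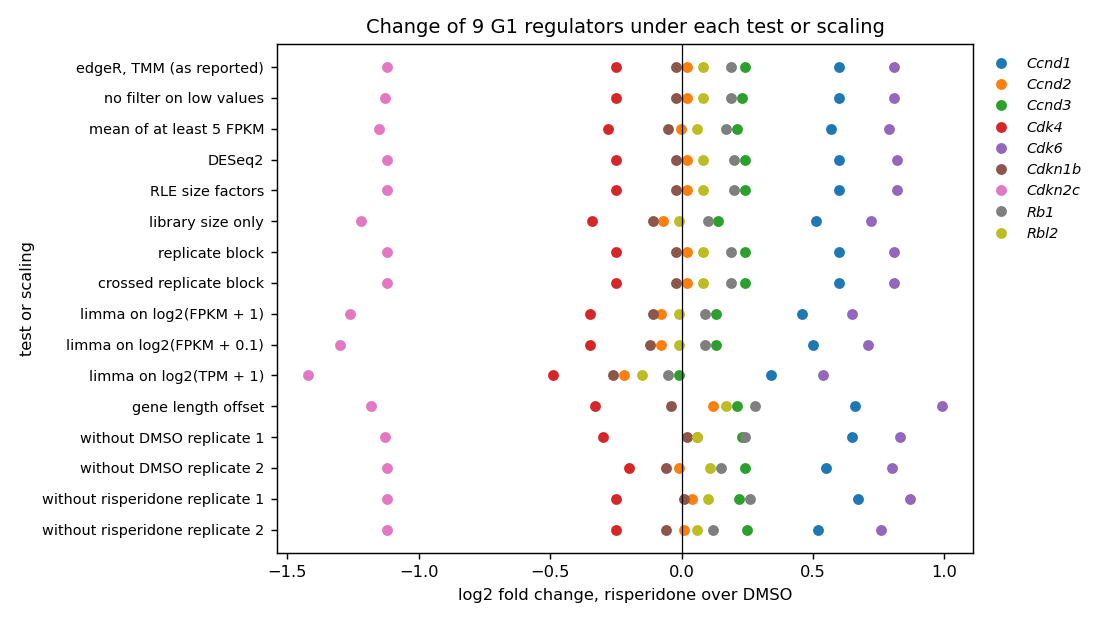
Log2 fold change, risperidone over DMSO, of the 9 tested genes (colours) under each test, filter or scaling and with each library left out (rows). Cdkn2c stays below -1 in each row, Cdk6 and Ccnd1 stay above 0 and Cdk4 below 0, whereas Ccnd2, Ccnd3, Cdkn1b, Rb1 and Rbl2 each lie on both sides of 0, among them Rb1 from -0.05 with TPM to 0.28 with the gene length offset.

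The other genes of this pathway were taken from 7 lists written with earlier results of these data known, and are given as counts without a list test. Of 4 further CDK inhibitors tested, 1 fell and 1 rose. Cdkn1a, the gene of p21 and a target of p53, was at 62.4 and 67.9 FPKM with DMSO and at 29.1 and 28.7 FPKM with risperidone, a log2 fold change of -1.07 (edgeR quasi-likelihood test, adjusted p = 1.74e-07). Its fall was close in size to that of Cdkn2c. Cdkn2a, which encodes p16 and p19ARF, rose by a log2 fold change of 0.24 (edgeR quasi-likelihood test, adjusted p = 0.00318), a call lost with limma on FPKM or TPM, with the gene length offset and, at 0.19, without DMSO replicate 1. Its sign turned with limma on TPM (-0.0028). The INK4 genes Cdkn2b (0.05) and Cdkn2d (0.13) were not called, and with limma on TPM both had the other sign (-0.19 and -0.11), with Cdkn2b past the threshold.

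Downstream of the kinases, the 5 G1/S genes gave 1 higher, 1 lower and 3 not called. Ccne2, the gene of cyclin E2, was at 3.19 and 3.51 FPKM with DMSO and at 1.47 and 1.82 FPKM with risperidone, a log2 fold change of -0.93. Ccne1 (0.03), Ccna2 (-0.36) and Cdk2 (-0.22) were not called, but Cdk2 passed the threshold with limma on FPKM or TPM, with library size alone and without risperidone replicate 1 (-0.34), and Ccna2 without risperidone replicate 2 (-0.60) and with TPM (-0.46). Both falls were smaller with the other risperidone library left out, at -0.1 for Cdk2 without replicate 2 and -0.15 for Ccna2 without replicate 1. Cdc25a, the phosphatase that activates CDK2, rose by 0.23, and this call was lost with DESeq2, with library size alone, with limma on FPKM or TPM, and without DMSO replicate 1 (0.22), DMSO replicate 2 (0.24) or risperidone replicate 1 (0.22).

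Of 13 tested partners of the pocket proteins, 5 were higher and 4 were lower, with a median log2 fold change of 0.10. Tfdp1, the dimer partner of E2F proteins, fell from 43.3 and 44.6 FPKM to 28.7 and 31.5 FPKM (-0.45), and E2f6 (0.34) and Lin37 of the DREAM complex (0.35) rose. The calls of E2f6 and Lin37 were lost with DESeq2, with library size alone, with limma on TPM, without a filter, and without DMSO replicate 1 (0.40 and 0.43), DMSO replicate 2 (0.28 and 0.29) or risperidone replicate 1 (0.19 and 0.24). That of E2f6 was also lost with limma on FPKM and that of Lin37 with the gene length offset. Rbl1, the gene of p107, a further pocket protein, named after its values were seen, went from 3.26 and 2.79 FPKM to 5.52 and 4.74 FPKM (0.84). The 19 tested S phase and mitosis genes had 8 higher and 3 lower members and a median of 0.30, and 7 of the 26 listed lay under the expression limit. Among those with a mean of at least 5 FPKM, the largest called changes were rises of Cdk1 (0.60) and Mcm2 (0.44) and a fall of Mcm7, of the same helicase (-0.77). Below that level Cdt1 (1.19), Cdc20 (1.02), Top2a (0.79) and Ccnb1 (0.63) were called higher and Tyms (-0.56) lower. These are named after their values were seen, and their dependence on the tests is not given here. The Mcm2 call was lost with limma on TPM (0.20).

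Of the CDK-activating and assembly factors, 2 rose and 1 fell among 5. Mnat1, the assembly subunit of the CDK-activating kinase, was at 20.2 and 20.3 FPKM with DMSO and at 29.7 and 28.2 FPKM with risperidone (0.62). Cdk7, the catalytic subunit of the same kinase, fell by 0.21 on the log2 scale, and Ccnh, the cyclin of that kinase (-0.07), was not called. Cdc37, which hands CDK4 to its chaperone, rose (0.20), and that chaperone, Hsp90ab1, was not called (0.07). Without risperidone replicate 2 Hsp90ab1 was past the threshold as higher (0.10), and with limma on TPM both Hsp90ab1 (-0.17) and Ccnh (-0.28) were past it as lower. The Cdc37 call was lost without a filter, with library size alone, with limma on FPKM or TPM, and without DMSO replicate 2 (0.12), and its sign turned with TPM (-0.03). The Cdk7 call was lost with DESeq2, without a filter, with the gene length offset, and without DMSO replicate 2 (-0.15) or risperidone replicate 2 (-0.14).

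Of 10 tested parts of ubiquitin ligases, in a list drawn up for p27 and the D cyclins, 2 rose and 3 fell. Fbxw7, best known for cyclin E and Myc as substrates, was at 7.94 and 8.58 FPKM with DMSO and at 4.97 and 4.93 FPKM with risperidone (-0.69). Skp1a fell (-0.38), and Ddb1 rose (0.36), a call lost with limma on TPM (0.12). All 9 tested regulators upstream were called, 4 higher and 5 lower. Myc was at 6.07 and 6.23 FPKM with DMSO and at 17.9 and 14.0 FPKM with risperidone (1.47), Smad3 rose (0.60), and Egr1, an immediate early factor, fell from 10.5 and 10.1 FPKM to 2.95 and 3.42 FPKM (-1.60). Over these lists the share of called genes was not compared with the 64.3% of all genes by a test.

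Across these 7 lists, the counts of called genes without risperidone replicate 2 differed from those above by at most 1 in either direction.

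**Figure D5:**
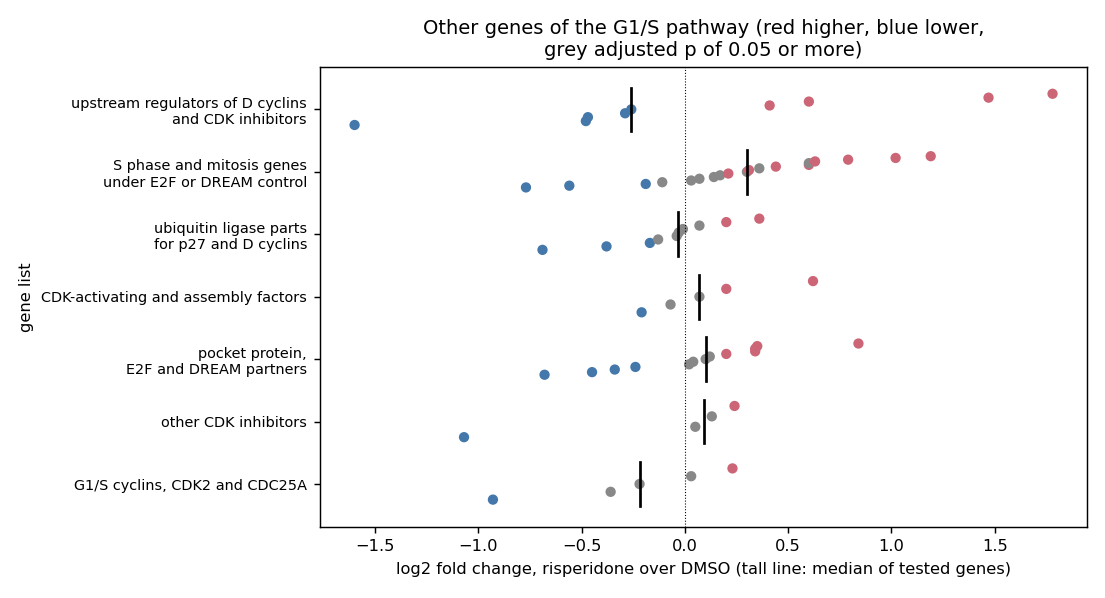
Log2 fold change, risperidone over DMSO, of each tested gene of 7 pathway lists, red where higher and blue where lower at an adjusted p under 0.05 from edgeR's quasi-likelihood test, with a tall line at the list median. Each list holds genes on both sides of 0, and the medians lie between -0.26 and 0.30.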

How the data were processed

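RNA pooled from 3 cultures per library was sequenced on an MGISEQ-2000. Per the study's methods, adaptor, poly-N and low-quality reads were removed. The submitters' processing notes list Bowtie2, RSEM, DESeq2 and GRCm38.p6, without versions or roles. The authors deposited 3 units per gene and library: estimated counts (expected counts), not scaled; FPKM; and TPM, which sums to the same total in each library. The FPKM values were calculated by the authors on the DC.TOM platform. The deposited TPM values are shares of a library. Mean columns made by the authors were not used.

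Counts were rounded, scaled by TMM and compared by the two-sided quasi-likelihood F-test of edgeR 4.0.16 (R 4.3.3). Genes averaging 1 FPKM or more entered, and p-values were adjusted over all of these by Benjamini-Hochberg. The threshold was 0.05. SE stands for standard error, derived from the F statistic and the log2 change. Alternatives used limma 3.58.1 on log2(value + pseudocount), DESeq2 1.42.0, other scalings, filters of 5 FPKM or none, each library left out, and an offset for gene length. The scripts were tested on simulated data. Replicates were not copies, as judged on genes with 20 counts or more in a pair. Between DMSO libraries 12.4% of these differed past the 5% chi-square value, and between risperidone libraries 23.5%. The latter pair includes the library with kidney transcripts. These shares do not tell separate cultures from technical repeats. Tables and plots were made with Python 3.11.15, pandas 2.3.3 and matplotlib 3.10.9. A kidney marker of the original list is not reported here. Members, gene lists and motifs were chosen with earlier results of these data known. Genes named are the members, the up to 3 largest called changes of each pathway list at a mean of at least 5 FPKM, and pathway lists of up to 5 tested genes in full. Cell type markers are given by their list, with examples.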

Additional observations from a re-analysis of the deposited data

How the results depend on the processing

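The calls of Ccnd1, Ccnd3, Cdk4, Cdk6 and Cdkn2c kept their direction and their side of the threshold under the other tests, scalings and filters and with each library left out, apart from Ccnd3 with TPM. With limma on log2(TPM + 1) the log2 fold changes were -0.22 for Ccnd2, -0.01 for Ccnd3, -0.26 for Cdkn1b, -0.05 for Rb1 and -0.15 for Rbl2, with 2 members higher and 4 lower. There the median of all genes was -0.22 and 1536 genes were higher and 5292 lower (22.5% of the calls higher), against 3287 and 3303 (49.9%) in the test reported. This alternative changes both the scaling and the test, and limma on log2(FPKM + 1) gave a median of -0.0838 and 2420 higher and 3975 lower. Library size alone gave 2501 higher and 4093 lower (37.9% higher), with Ccnd2 at -0.07, Rbl2 at -0.01 and Rb1 at 0.10, not called. With limma on log2(FPKM + 1) or log2(FPKM + 0.1), Ccnd2 was at -0.08, Rbl2 at -0.01 and Rb1 at 0.09, not called. Rb1 was also not called without a filter (0.19), at a mean of at least 5 FPKM (0.17, with Ccnd2 at -0.0024) or with DESeq2 (0.20). The gene length offset brought Ccnd2 (0.12) and Rbl2 (0.17) past the threshold, with Rb1 at 0.28. The causes were not tested. A limit of 1 on the size of the log2 change left 267 higher and 401 lower genes, with 0 members higher and 1 lower (Cdkn2c). With each library left out, the ranges were -0.01 to 0.06 for Ccnd2, -0.06 to 0.02 for Cdkn1b and 0.12 to 0.26 for Rb1.
Among genes outside the group, limma on TPM gave the other sign to Ccne1 (-0.20), Cdc25a (-0.01), Cdkn2a (-0.0028), Cdkn2b (-0.19), Cdkn2d (-0.11), Cdc37 (-0.03), Hsp90ab1 (-0.17) and Pparg (-0.06). So did library size alone for Ccne1 (-0.06), Cdkn2b (-0.05) and Hsp90ab1 (-0.02), limma on FPKM with either pseudocount for Ccne1 (-0.06 and -0.07), Cdkn2b (-0.05) and Hsp90ab1 (-0.03), and the gene length offset for Cdkn2b (-0.03). With each library left out, Ccne1 ranged from -0.0019 to 0.06, Cdkn2b from -0.01 to 0.10, Cdkn2d from 0.02 to 0.24 and Ccnh from -0.18 to 0.03.

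Counts per list also moved. With TPM the counts of higher and lower genes were 0 and 3 for the G1/S genes, 0 and 2 for the other CDK inhibitors, 1 higher for the pocket protein partners, 1 and 3 for the CDK-activating factors, 0 and 7 for the ubiquitin ligase parts and 4 higher for the S phase genes. With the limit of 1 they were 0 and 0 for the G1/S genes, the pocket protein partners, the CDK-activating factors and the ubiquitin ligase parts, 0 higher for the other CDK inhibitors, 2 and 0 for the S phase genes and 2 and 1 for the upstream regulators. With library size alone, or limma on FPKM with either pseudocount, the G1/S genes had 0 higher and 2 lower, the CDK-activating factors 1 higher and the ubiquitin ligase parts 1 higher. The ubiquitin ligase parts had 5 lower with library size alone and with log2(FPKM + 1), the pocket protein partners had 2 higher with library size alone and 3 with limma on FPKM, and the other CDK inhibitors had 0 higher with limma on FPKM and with the length offset. DESeq2 gave 0 higher G1/S genes, 2 higher pocket protein partners and 0 lower CDK-activating factors. Without a filter there were 3 higher pocket protein partners and 1 higher and 0 lower CDK-activating factors. The limit of 5 FPKM left 0 lower G1/S genes, 2 lower pocket protein partners and 4 higher S phase genes, and the length offset 0 lower CDK-activating factors. With each library left out, the ranges of higher and lower counts were 0 to 1 and 1 to 2 for the G1/S genes, 0 to 1 higher for the other CDK inhibitors, 2 to 4 and 2 to 4 for the pocket protein partners, 1 to 3 and 0 to 1 for the CDK-activating factors, 1 to 2 higher for the ubiquitin ligase parts, and 5 to 9 and 1 to 3 for the S phase genes. In all genes they were 2666 to 3310 higher and 2725 to 3350 lower.

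Replicate numbers join only 2 pairs of libraries, and nothing in the labels says that a number marks a shared culture. The correlation of their deviations across genes was -0.105, and the replicate block gave 3292 higher and 3321 lower genes and changed no call among the members. The crossed pairing, added after seeing the data, gave 3474 higher and 3519 lower. Cdkn1c was under the expression limit and has no value under any alternative. Leaving out a library leaves 1 library in a treatment, which is then assumed to vary like the other treatment.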

Other observations

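Among markers of the cells themselves, those of preadipocytes and fibroblasts moved in both directions with risperidone. Of 7 tested, 4 rose (the 3 below and Ly6a) and 2 fell (Col3a1 and Pdgfrb), and Ly6a, Col3a1 and Pdgfrb are named after their values were seen. Ly6a, with 26 and 24 counts with DMSO and 34 and 74 with risperidone, lost its call without risperidone replicate 2 (1.20 with it, 0.53 without it) and without a filter. Dlk1, the gene of preadipocyte factor 1, was at 30.4 and 32.9 FPKM with DMSO and at 81.7 and 83.3 FPKM with risperidone, a log2 fold change of 1.52 ± 0.0544 (SE, edgeR quasi-likelihood test, adjusted p = 1.11e-08). Thy1, a surface protein of fibroblasts, was at 35.8 and 36.7 FPKM against 70.4 and 70.4 FPKM (1.05), and Col1a1, a chain of type I collagen, at 380 and 368 FPKM against 715 and 674 FPKM (0.99). Of the 4 adipocyte markers tested, 2 fell. Fabp4, the fatty acid carrier of adipocytes, was at 130 and 169 FPKM with DMSO and at 59.5 and 71.2 FPKM with risperidone (-1.09), and Lpl, lipoprotein lipase, at 234 and 250 FPKM against 192 and 191 FPKM (-0.24). Pparg, the regulator of adipocyte differentiation, was not called (0.12, edgeR quasi-likelihood test, adjusted p = 0.194). Cd36, a fatty acid receptor, was at 1.21 and 1.14 FPKM with DMSO and at 1.04 and 1.66 FPKM with risperidone and was not called (0.27). Its log2 fold change was 0.52 without risperidone replicate 1 and -0.02 without risperidone replicate 2. Dlk1, Thy1, Col1a1, Fabp4 and Lpl kept their call under the other tests, scalings and filters and with each library left out. Of the 11 kidney markers, 5 passed the expression limit and were called higher, through risperidone replicate 2, where Kap had 1048 counts against 8 to 16 in the other 3 libraries.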
